A study of Mus musculus with 2 samples.

Results

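The miR-23/27/24 clusters are a pair of short gene clusters that encode the same 3 microRNA families on different chromosomes. Their 6 members were the rows for Mir23a, Mir27a and Mir24-2 (a cluster, chromosome 8) and for Mir23b, Mir27b and Mir3074-1 (b cluster, chromosome 13), out of 1973 miRNA loci in the deposited tables. They were chosen by gene identifier and not by level. Small RNA was sequenced from the forebrains of 2 mouse pups of strain B6NCrl, pup 1 and pup 3, at an age of 0 days after birth. No genotype, treatment or agent is labelled, so the pups form 1 group of 2 replicates, each from a separate animal. Both pups carry the same donor entry, and their sex was not collected. The library of pup 1 held 2742746 gene-strand counts and that of pup 3 held 2427066.

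MicroRNAs are cut from hairpin precursors. The mature strand guides Argonaute to messenger RNAs that pair with its seed, bases 2 to 8. The a and b clusters are paralogs: each carries a miR-23, a miR-27 and a miR-24 hairpin in the same order, and the hairpins of a cluster are thought to be cut from a shared primary transcript. The clusters are known from blood vessel endothelium, where they act in vessel growth, and miR-23 and miR-27 have also been studied in glia and neurons, miR-24 in the control of cell division and cell death. The tissue is a mixture of these cells, so a lower level can mean fewer cells of a type or less RNA per cell, which cannot be told apart.

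The hairpins of the a cluster sit close together. In the assembly GRCm38 (mm10), Mir23a (ENSMUSG00000065611.1, chromosome 8, 84208518 to 84208592), Mir27a (ENSMUSG00000065444.1, 84208672 to 84208758) and Mir24-2 (ENSMUSG00000065541.1, 84208815 to 84208921) lie on the plus strand within 404 nt. No annotated gene contains them on that strand. The last 2 nt of Mir24-2 overlap the first exon bases of the noncoding gene Gm26532. The b cluster is spread over 792 nt within the protein-coding gene 2010111I01Rik, which RefSeq calls Aopep, an aminopeptidase gene on the same strand. Mir23b (ENSMUSG00000065599.1, chromosome 13, 63300484 to 63300557) lies in its intron. Mir27b (ENSMUSG00000065475.1, 63300712 to 63300784) and Mir24-1 (63301208 to 63301275) also lie in exons of transcripts of that gene annotated for nonsense-mediated decay.

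Mir24-1 has no row of its own in the tables. The row that covers its place is Mir3074-1 (ENSMUSG00000092741.1, 63301199 to 63301283), a hairpin on the minus strand that overlaps Mir24-1 and also lies in an intron of Fancc. Reads from Mir24-1 were therefore taken from the strand opposite Mir3074-1. On chromosome 8 the mirror image holds: Mir3074-2 (84208825 to 84208907, minus strand) has no row and lies opposite Mir24-2. The map of both clusters shows this order.

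**Figure D1:**
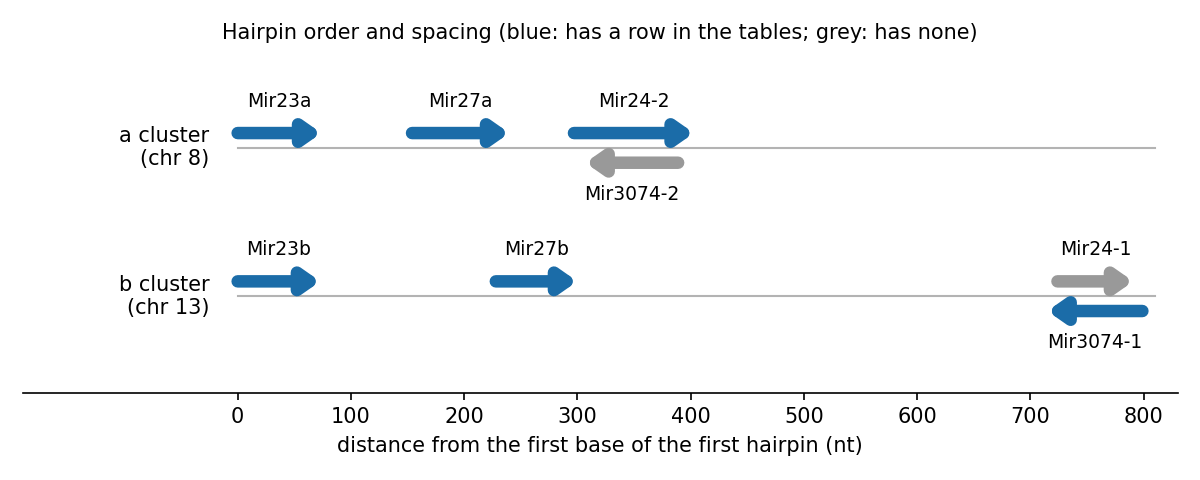
Position of each hairpin, in nt from the first base of the first hairpin of its cluster, with arrows pointing in the direction of transcription. Blue hairpins have a row in the deposited tables and grey ones have none; the a cluster spans 404 nt and the b cluster 792 nt from its first hairpin to the end of Mir24-1.

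The sequences decide which reads could be told apart, since a read that maps to several places was counted at no locus. The mature products of both clusters are shown with the seed in capitals, 5′ to 3′, from RefSeq on GRCm38.p6. All 6 members matched a hairpin there. The set used here holds no 3p product of Mir23b, so the list lacks it. The matching stretch of its hairpin is used below instead. miR-27a-3p and miR-27b-3p share their seed, as do the miR-24 5p products, while the 5p products of miR-23 and of miR-27 differ in it between the clusters.
miR-23a-3p (Mir23a): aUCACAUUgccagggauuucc
miR-27a-3p (Mir27a): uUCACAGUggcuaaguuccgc
miR-27b-3p (Mir27b): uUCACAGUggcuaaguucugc
miR-23a-5p (Mir23a): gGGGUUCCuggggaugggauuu
miR-23b-5p (Mir23b): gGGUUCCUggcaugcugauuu
miR-27a-5p (Mir27a): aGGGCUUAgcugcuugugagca
miR-27b-5p (Mir27b): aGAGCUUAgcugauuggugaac
miR-24-3p (Mir24-1 and Mir24-2): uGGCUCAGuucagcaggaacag
miR-24-2-5p (Mir24-2): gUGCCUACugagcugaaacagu
miR-24-1-5p (Mir24-1): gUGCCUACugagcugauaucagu

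The main products of miR-23 and miR-27 differ between the clusters at a single base near the 3′ end. Positions are counted from 1 at the 5′ end of the a product. Over 21 bases, miR-27a-3p and miR-27b-3p differ by C19U, and the first 18 bases are the same. The Mir23b hairpin aligns with miR-23a-3p at its bases 46 to 66, where it differs by U19A, again after 18 shared bases. The differing base is in capitals.
miR-27a-3p: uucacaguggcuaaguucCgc
miR-27b-3p: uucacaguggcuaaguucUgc
miR-23a-3p: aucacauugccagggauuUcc
Mir23b hairpin, bases 46 to 66: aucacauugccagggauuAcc
A read of either family that stops before base 19 carries no base that separates the paralogs, and the longest run shared by the hairpins is 20 nt in both families.

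The miR-24 family cannot be separated by its main product at all. miR-24-3p is the same in all 22 bases from Mir24-1 and Mir24-2, and the hairpins share a run of 28 nt around it. The 5p products differ first by A17U. A read within the shared run matches both loci equally well, so counts at the miR-24 loci are no measure of miR-24-3p. Of the reads of pup 1, 42.2% matched several places, and of those of pup 3, 44.1%, and the tables do not say from which miRNA. The antisense hairpins have the same limit: miR-3074-5p is encoded by both Mir3074-1 and Mir3074-2, and its first 20 bases are the reverse complement of bases 1 to 20 of miR-24-3p, shown here in capitals.
miR-3074-5p: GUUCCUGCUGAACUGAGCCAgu
miR-24-3p: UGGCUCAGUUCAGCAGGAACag

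The miR-23 loci were the abundant members of both clusters. Levels are in CPM, counts scaled to a total of 1000000 gene-strand counts per library, and mature products are of near equal length, so counts were not divided by hairpin length. Mir23b had 26439 counts in pup 1 and 21881 in pup 3, which is 9640 and 9015 CPM (9328 ± 441, SD, n = 2). It ranked at 21 of the 1973 loci by mean level. Mir23a had 15910 and 11966 counts, or 5801 and 4930 CPM (5365 ± 616), and ranked at 34. Mir23b was above Mir23a in both pups, and the values of the pups did not overlap between the loci.

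The miR-27 loci came next, with a wide gap between the clusters. Mir27b, whose product is known for targets in lipid metabolism and vessel branching, had 2013 and 1107 counts, or 734 and 456 CPM (595 ± 196), at rank 119. Mir27a had 250 and 157 counts, or 91.1 and 64.7 CPM (77.9 ± 18.7), at rank 219. Mir27b was higher in both pups, and its lower value stood several times above the higher value of Mir27a.

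The rows at the miR-24 loci lay near Mir27a in level. Mir24-2 had 237 counts in pup 1 and 216 in pup 3, or 86.4 and 89.0 CPM (87.7 ± 1.83), at rank 214. The gene strand of Mir3074-1 had 189 and 151 counts, or 68.9 and 62.2 CPM (65.6 ± 4.73), at rank 227. The opposite strand, where Mir24-1 lies, had 37 and 32 counts, or 13.5 and 13.2 CPM (13.3 ± 0.216). Mir24-2 and Mir27a could not be ordered: Mir27a was the higher in pup 1 and Mir24-2 in pup 3. The means of Mir27a and Mir3074-1 differed by less than the SD of Mir27a, while Mir23b, Mir23a and Mir27b kept their order in both.

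**Figure D2:**
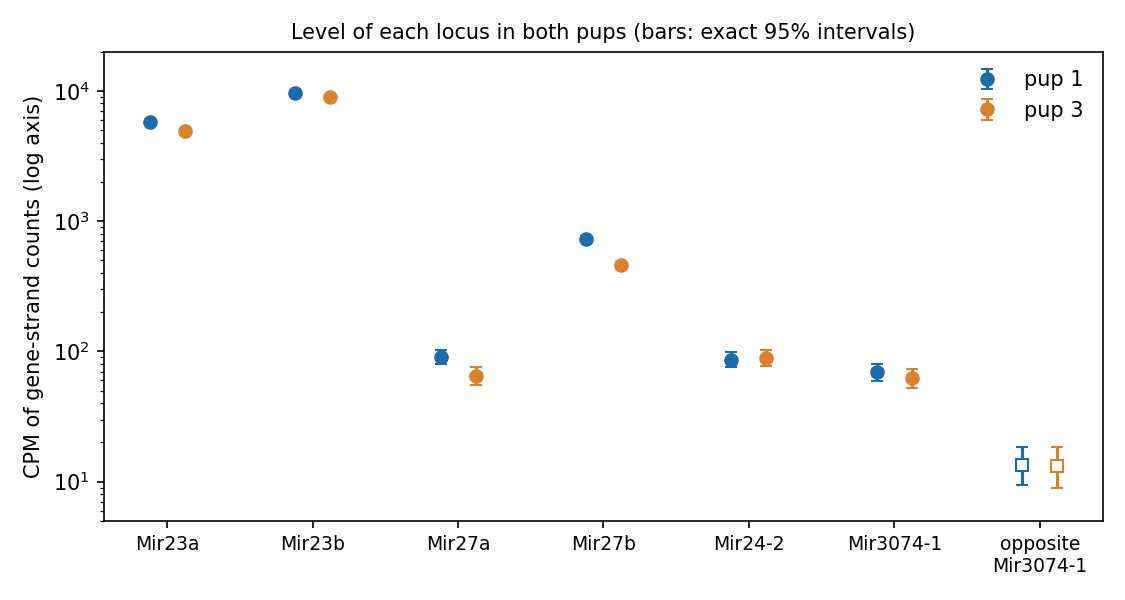
Level of each locus in CPM (log axis) in pup 1 and pup 3, with exact Clopper-Pearson 95% intervals that cover counting error only; open squares are the counts opposite Mir3074-1. The miR-23 loci sit between 4930 and 9640 CPM, Mir27b at 456 and 734 CPM, and the other rows below 100 CPM.

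For scale, the most abundant locus of the libraries, Mir99a, had 254901 and 283764 CPM. Of the tissue markers, Mir137, a neuronal miRNA, had 25786 ± 3504 CPM, and the vessel markers Mir126a, Mir143 and Mir145a summed to 34960 CPM in pup 1 and 39382 CPM in pup 3. All 6 neuronal markers had counts, 4 of them at least 10 in both pups, and the sum of all 6 was 42895 and 38966 CPM. Mir137, Mir128-1 and Mir128-2 gave nearly all of it. Mir124a-1, Mir124a-2 and Mir124a-3 had means of 7.06, 1.74 and 0.959 CPM. Reads that map to several places are left out of these counts. Low counts at numbered copies such as these therefore need not mean a low level of their product. The 3 oligodendrocyte markers summed to 729 and 550 CPM, the 3 blood markers to 220 and 203 CPM, and the liver miRNA Mir122 had 48.1 and 63.0 CPM. The muscle list summed to 21.9 and 41.6 CPM, with 3 of 5 loci at 0. Those 3, Mir1a-1, Mir133a-1 and Mir133a-2, are also numbered copies, so the same limit holds and their zeros do not show that muscle RNA was absent. The part of vessel or other cells in the levels of the clusters was not tested.

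The loci nearest in level to each member, by the distance of log2(CPM + 1) over the 2 libraries, came from unrelated families. Mir708 and Mir30d were nearest to Mir23a (distances 0.06 and 0.10), and Mir342 and Mir22 to Mir23b (0.09 and 0.13). Mir134 and Mir337 were nearest to Mir27b (0.12 and 0.15), Mir194-2 and Mir503 to Mir27a (0.09 and 0.13), Mir551b and Mir669c to Mir24-2 (0.26 and 0.29), and Mir34a and Mir5099 to Mir3074-1 (0.17 and 0.18). With 2 samples this likeness is mostly one of level.

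The clusters were compared by the share of a family's counts that came from the b locus. This share uses counts of 1 library only and so needs no scaling between libraries. In the miR-23 family, Mir23b held 62.4% of the counts in pup 1 (95% interval by Clopper-Pearson 62.0 to 62.9%) and 64.6% in pup 3 (64.1 to 65.2%), a mean of 63.5% ± 1.57. Counts at the b locus were 1.66 and 1.83 times those at the a locus. In the miR-27 family the b locus held more: Mir27b had 89.0% in pup 1 (87.6 to 90.2%) and 87.6% in pup 3 (85.6 to 89.3%), a mean of 88.3% ± 0.971. This is 8.05 and 7.05 times the counts at Mir27a.

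In the miR-24 family the order was the other way round. Counts opposite Mir3074-1, read as Mir24-1, were 13.5% of the uniquely placed miR-24 counts in pup 1 (9.69 to 18.1%) and 12.9% in pup 3 (9.00 to 17.7%), a mean of 13.2% ± 0.425. The b locus thus had fewer counts than the a locus in both pups. This value rests on the strand of the Mir3074-1 row, which the tables list at an earlier identifier version than the annotation used here. With the strands of that row exchanged, a setting added after the data were seen, the b share was 42.8% ± 2.28, still below equal counts. Counts were also divided by the length of the annotated hairpins, with the strands as annotated. The b shares were then 63.8% ± 1.56 for miR-23, 89.96% ± 0.847 for miR-27 and 19.3% ± 0.577 for miR-24. No share was computed with the exchange and the division together, but the order of the miR-24 loci would then turn in both pups. The gene strand of Mir3074-1 had 189 and 151 counts, for the 68 nt of Mir24-1. Mir24-2 had 237 and 216 counts for 107 nt. The order of the miR-24 loci therefore does not hold under every setting.

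**Figure D3:**
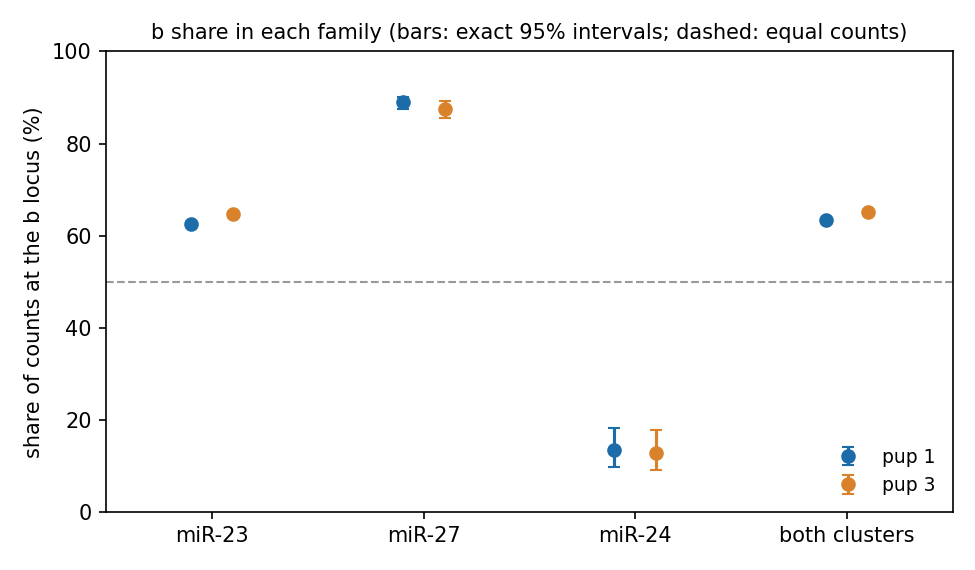
Share of each family's counts at the b locus, in percent, in pup 1 and pup 3, with exact 95% intervals; the dashed line marks equal counts at both loci. Mir23b and Mir27b lie above the line at 62.4 to 64.6% and 87.6 to 89.0%, and Mir24-1 lies below it at 12.9 to 13.5%.

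The b over a ratio of uniquely placed counts was not the same across families in either library. The ratio of miR-27 was 4.85 times that of miR-23 in pup 1 (95% interval 4.24 to 5.53, from the counts) and 3.86 times in pup 3 (3.26 to 4.56). The ratio of miR-23 was 10.6 times that of miR-24 in pup 1 (7.52 to 15.1) and 12.3 times in pup 3 (8.51 to 17.9). With the strands of the Mir3074-1 row exchanged, it was 2.08 times in pup 1 (1.72 to 2.53) and 2.62 times in pup 3 (2.12 to 3.22). These intervals cover counting error only. They do not cover the favour that ligation and amplification give to some sequences, which can differ between loci and is shared by both libraries. The miR-24 counts also leave out reads of miR-24-3p that match both loci, while 3p reads of miR-23 and miR-27 that include base 19 can be told apart. The ratios to miR-24 thus compare unlike parts of the families.

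Summed, the clusters were led by miR-23. The a cluster held 0.598% of all gene-strand counts in pup 1 and 0.508% in pup 3, and the b cluster, with the counts at Mir24-1, 1.04% and 0.948%. Mir23a gave 97.0% of the a cluster's counts in both pups, and Mir23b gave 92.8 and 95.1% of those of the b cluster. The b share of both clusters together was 63.5% in pup 1 and 65.1% in pup 3 (64.3% ± 1.16), and this sum therefore follows miR-23.

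Within a cluster the levels were far apart, and the step from miR-23 to miR-27 was wider in the a cluster. Mir23a had 63.6 times the counts of Mir27a in pup 1 and 76.2 times in pup 3, against 13.1 and 19.8 times for Mir23b over Mir27b. Mir23a had 67.1 and 55.4 times the counts of Mir24-2. Mir27b had 54.4 and 34.6 times the counts read as Mir24-1, and 10.7 and 7.33 times those of the gene strand of Mir3074-1. Counts at the miR-24 loci leave out miR-24-3p reads that match both loci. The counts read as Mir24-1, 37 and 32, also rest on the strand of the Mir3074-1 row. The folds over miR-24 are therefore no measure of its level.

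The b shares of the pups lay close together. Each side is 1 pup, so the tests compare these libraries and not conditions. In the miR-23 family, b over a was higher in pup 3 by 0.14 on the log2 scale (95% interval 0.10 to 0.18). Fisher's exact test gave a two-sided p of 2.88e-10, or 8.65e-10 after Benjamini-Hochberg adjustment over the 3 families. In the miR-27 family the difference was −0.19 (−0.50 to 0.12, exact p = 0.227, adjusted p = 0.340), and in the miR-24 family −0.08 (−0.81 to 0.66, exact p = 0.897, adjusted p = 0.897). Neither passed, and the intervals are wide.

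The same test was run on all 54615 pairs of the 331 loci with at least 10 counts in both pups, and 45.2% of pairs had a ratio that differed between the pups. The median pair changed by 0.40 on the log2 scale. The change in Mir23b over Mir23a was larger than that of 18.6% of pairs (exact p = 1.63e-09 adjusted over all pairs), and the change in Mir27b over Mir27a larger than that of 25.5% (exact p = 0.349, adjusted likewise).

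Ratios within a cluster were read from the same pairs. Mir23b over Mir27b was higher in pup 3 by 0.59 (95% interval 0.48 to 0.70, exact p = 5.41e-26 adjusted over all pairs), a change larger than that of 66.7% of pairs. Mir24-2 over Mir27a was higher by 0.54 (0.15 to 0.93, adjusted exact p = 0.0182). Mir23a over Mir27a stood at 0.26 (−0.03 to 0.55, adjusted exact p = 0.158) and Mir23a over Mir24-2 at −0.28 (−0.55 to −0.01, adjusted exact p = 0.0902), and these did not pass. Whether the changes differ between the clusters was not tested.

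Differences in level between the pups depended on the scale. With library totals, Fisher's exact test, adjusted over 400 loci with at least 10 summed counts, called 56.5% of all tested loci, 46.2% as lower and 10.2% as higher in pup 3. All 6 members were tested: 4 were lower, none was higher and 2 did not pass. A count of 4 in 6 is near the 56.5% called in either direction, while 46.2% of all tested loci were called lower. Mir27b fell by 0.69 on the log2(CPM + 1) scale (adjusted exact p = 1.67e-37), Mir27a fell by 0.49 (adjusted exact p = 0.00156), Mir23a fell by 0.23 (8.79e-41) and Mir23b fell by 0.10 (6.32e-13). Mir24-2 had 0.04 (0.861) and Mir3074-1 −0.15 (0.455). The median of the members was −0.19, against −0.31 over all tested loci.

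Relative to that median the miR-23 loci were not lower. With DESeq2 size factors, which set the median of the tested loci to 0.00, 44.8% of loci were called, 25.2% as higher and 19.5% as lower. With TMM sizes 22.8% were higher and 23.2% lower. Of the members, 3 were higher and 1 lower on either of these scales. With size factors, Mir23b had 0.23 (adjusted exact binomial p = 1.98e-69), Mir24-2 0.37 (0.0159) and Mir23a 0.10 (1.25e-07), while Mir27b was lower, at −0.35 (1.40e-10). Mir27a, at −0.16 (0.420), and Mir3074-1, at 0.18 (0.396), did not pass. Mir27b was the only member that passed as lower in pup 3 under library totals, TMM sizes and size factors alike, and its ratio was at rank 71 from the lowest of 400. The counts opposite Mir3074-1 had a log2 ratio of −0.03 (adjusted Fisher's exact p = 1.0, over the 14 rows with at least 10 opposite counts, of which 78.6% were called).

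**Figure D4:**
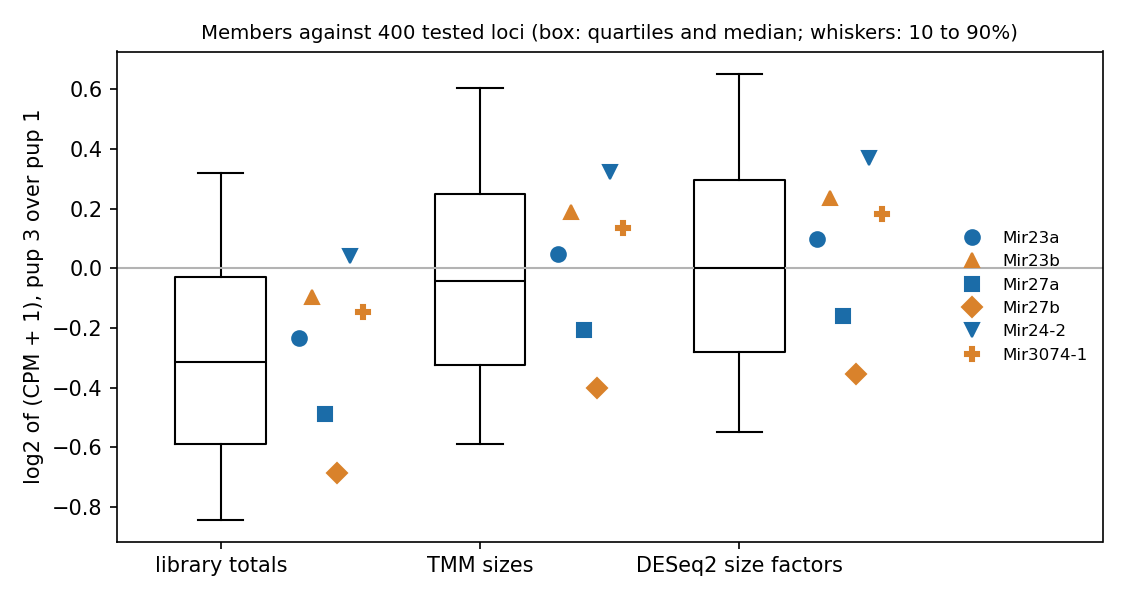
Log2 of (CPM + 1) in pup 3 over pup 1 for each member (blue, a cluster; orange, b cluster) beside the spread of the 400 tested loci, under library totals, TMM sizes and DESeq2 size factors. The median of all loci is −0.31, −0.04 and 0.00; Mir27b is the lowest member under each scale and Mir24-2 the highest.

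The Mir3074-1 row had a sizeable share of its counts on each strand. Of its counts, 16.4% lay opposite the gene in pup 1 (exact 95% interval 11.8 to 21.9%) and 17.5% in pup 3 (12.3 to 23.8%). Among 286 rows with at least 100 counts on both strands and in both pups together, 274 had under 5% of their counts opposite the gene, 11 had over 95%, and Mir3074-1 was the 1 row between. The other 5 members had nearly all counts on the gene strand: Mir23a, Mir23b and Mir27b had 0 opposite counts in both pups, which allows up to 1.09 CPM in pup 1 and 1.24 CPM in pup 3. Mir27a had 0 and 1, and Mir24-2, which lies opposite Mir3074-2, had 4 and 0.

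**Figure D5:**
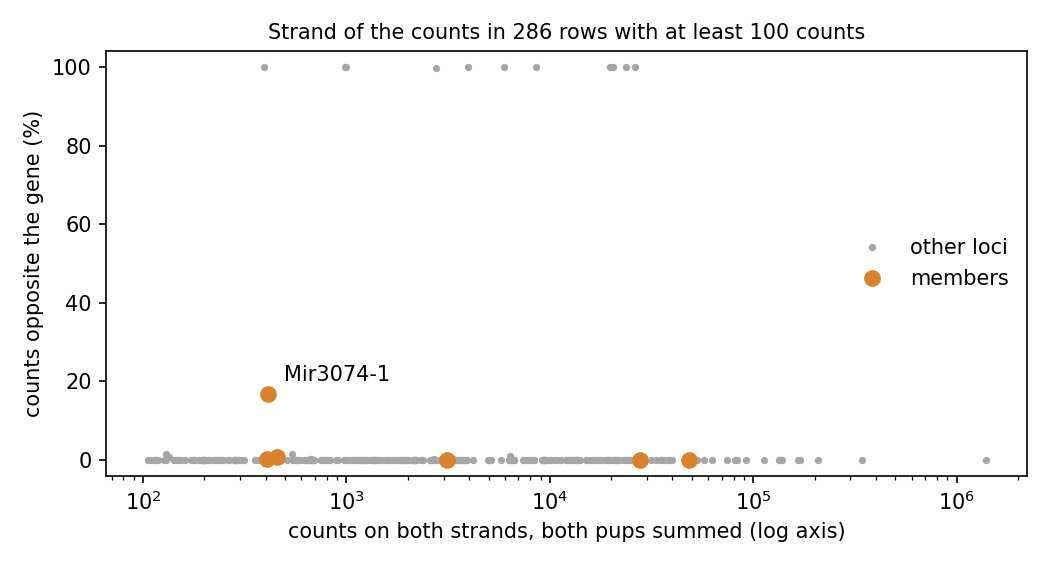
Percent of counts opposite the annotated gene against the counts on both strands (log axis), for the 286 rows with at least 100 counts, both pups summed. Rows lie near 0 or near 100%, except Mir3074-1 between them.

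Few other loci shared a seed with the clusters in a way that the data could show. By rule, loci were taken whose mature product has the seed of a member's product, at the same position or moved by 1 base, and there were 7, all with a row. Of these, 5 had no count in either pup: Mir6413, Mir6410, Mir6369 and Mir5124b, which have the seed of miR-24-3p, and Gm24195, whose miR-1271-3p holds the seed of the miR-24 5p products moved by 1 base. The other 2 encode the neuronal miR-128-3p, in which the miR-27 seed lies at bases 1 to 7, shown in capitals.
miR-128-3p: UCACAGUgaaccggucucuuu
Mir128-1 had 11051 ± 405 CPM and Mir128-2 4084 ± 319 CPM, both above Mir27b in each pup. miR-128-3p is the same from both loci, so these levels leave out reads that map to several places.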

How the data were processed

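MicroRNA libraries of the forebrain of pup 1 and pup 3 were used, as 1 group of 2 replicates. The authors deposited raw read counts per miRNA gene for both strands, the gene strand and the opposite strand, with no normalization; per the text deposited beside them, the assembly is mm10 and the annotation M4. An aligner or counter is not given in the sources used here. Counts are of reads that map to 1 place. The 4 rows that name no gene stayed out of library sizes; they held 13.4% (pup 1) and 12.3% (pup 3) unmapped reads, 42.2% and 44.1% reads of several places, and 3.23% and 2.27% reads of no locus on its strand. Names and positions came from GENCODE M21 on GRCm38, matched to 1894 of 1973 rows by identifier; 79 matched rows, 3 of them members, had another version number. PCR copies count as reads, so intervals and floors (3 counts, or 1.09 and 1.24 CPM) cover counting error only.

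Computed here were CPM, b shares with exact Clopper-Pearson intervals (95%), log2 ratios with a pseudocount of 1 CPM, Fisher's exact and exact binomial tests with Benjamini-Hochberg adjustment at 0.05, and TMM (edgeR) and DESeq2 scales over loci with at least 10 summed counts. The design of 1 group gives edgeR's own test no contrast. The tests were checked on simulated counts that held counting error only. With equal shares in both libraries, Fisher's exact test called 0.0% of loci. The exact binomial test, scaled by loci known to be unchanged, called 74.6% of loci changed by 1.5 times. This check does not cover differences between animals, or the TMM and DESeq2 scales. The members and lists were chosen with earlier results of these data known, and the test over all pairs of loci, the strand summary and the exchange of strands were added after the data were seen. Named loci are the members, their antisense partners, loci that share a seed, the 2 nearest in level to each member, the most abundant locus and the markers (neuron, vessel, oligodendrocyte, liver, muscle, blood). Scales were computed in R 4.3.3 with edgeR 4.0.16 and DESeq2 1.42.0, tests in Python 3.11.15 with scipy 1.17.1, and tables and figures with pandas 2.3.3, numpy 2.4.6 and matplotlib 3.10.9.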

Additional observations from a re-analysis of the deposited data

Results flagged for a closer look

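Counts opposite Mir24-2, which belong to no comparison of the report, numbered 4 in pup 1, above the 3 counts that a count of 0 allows, and 0 in pup 3. Mir3074-2 lies on that strand and has no row of its own.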

How the results depend on the processing

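With 2 pups, levels have an SD but no test. The miR-24 loci had few counts, and they are limited by reads that match both loci and by the strand of the Mir3074-1 row. The b share of miR-27 was 89.96% when counts were divided by hairpin length. The b share of miR-24 was 19.3% with that division, 47.1% with both strands together, which merges Mir3074-1 with Mir24-1, and 42.8% with the strands of that row exchanged. Leaving out a pup gave 62.4 to 64.6% for miR-23, 87.6 to 89.0% for miR-27, 12.9 to 13.5% for miR-24 and 63.5 to 65.1% for both clusters. The direction between the pups turned for Mir23a with TMM sizes (0.0495) and size factors (0.10), for Mir23b (0.19 and 0.23) and for Mir3074-1 (0.13 and 0.18). Those scales are set by the median or trimmed mean of the loci, which lies below 0 under library totals. Mir27a no longer passed (−0.21, adjusted p = 0.271 with TMM, and −0.16, 0.420 with size factors), and Mir24-2 passed (0.32, 0.0386 and 0.37, 0.0159). The other 38 values that answer a comparison kept their call, or stayed within 1.5 times for a count of loci, or moved by no more than the SD of the pups. Some of these could not have come out otherwise and are no check. With 2 pups, leaving 1 out cannot move a mean share by more than the SD. The miR-23 loci had 0 opposite counts, so joining the strands could not change their share. With Mir99a left out of the totals, the levels of all 6 members rose by more than their SD (Mir23b to 12762 CPM, Mir27b to 811 CPM). No paired analysis was possible because there is only 1 group, and leaving out a pup leaves no comparison of the pups.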
